A study of Mus musculus with 16 samples.

Results

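Nmi and 8 other genes of interferon signalling were followed in mouse primordial germ cells (PGCs), from which sperm and eggs develop. The 9 genes were Nmi, Ifi35, Oasl2, Parp9, Parp12, Parp14, Irf1, Irf9 and Stat2, and all 9 had a row by symbol in both expression tables of 26219 genes. The set was chosen by name, partly because Nmi, Oasl2 and Parp9 were higher in Prdm1 conditional knockout (CKO) libraries than in controls. The difference between CKO and control libraries is therefore described for the 9 genes without a test, and tests are given for the wild-type libraries.

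Prdm1 encodes BLIMP1, a zinc finger repressor that is needed for PGC specification. The study profiled 16 libraries of 3′ RNA tags, 8 from floxed embryos and 8 from wild-type embryos. All 8 floxed libraries came from E11.5 embryos of C57BL/6 background that were Prdm1(flox/flox) and Rosa26(neo-EYFP/+), so the controls too had floxed Prdm1 alleles and the EYFP reporter. The 4 CKO-labelled libraries carried in addition the Dppa3-MCMP(Tg/0) transgene, a tamoxifen-inducible Cre under the Dppa3 promoter, and the 4 controls did not. The dams of both groups received 3 mg of 4-hydroxytamoxifen per 25 g of body weight at 10.5 dpc. Cells were sorted for EYFP or with an SSEA-1 antibody, and the labels do not say which sort was used for which group. Between CKO and control libraries, an effect of the Cre transgene, or of the sort if it differed, cannot be told apart from one of the Prdm1 deletion. The wild-type cells carried Dppa3(EGFP/+) on a mixed ICR and C57BL/6 background, with 2 libraries each at E10.5, at E11.5, from E13.5 males and from E13.5 females. Whether replicates are separate embryos or litters is not given in the labels, so p-values measure only the spread between these libraries.

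Type I interferons bind a receptor whose JAK kinases phosphorylate STAT proteins, STAT2 among them. With IRF9, STAT2 is part of a complex that enters the nucleus and switches on interferon-stimulated genes through an element of repeated GAAA letters. Interferon gamma acts at a different element, called GAS, and IRF1 binds GAAA-rich elements much as the IRF9 complex does. NMI binds STAT proteins and IFI35, while OASL2, PARP9, PARP12 and PARP14 are products of interferon-stimulated genes. BLIMP1 was originally described as a repressor of the interferon beta gene, and the sites it binds resemble those of the IRF proteins.

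The letters upstream of 3 of the genes are shown because the elements of IRF proteins and of BLIMP1 share letters. The RefSeq promoter table of GRCm38.p6 had 9 windows for 7 of the 9 genes, each of 300 bases, from 250 before to 50 after a start site. The letters searched, on both strands, were GAAANNGAAA for an IRF-type element, AGNGAAAG for a BLIMP1-type core and TTCNNNGAA for a GAS-type element. Capitals in the lines below mark the IRF-type match of Stat2, read from its opposite strand, and the GAS-type match of Irf1. The Stat2 stretch is chr10:128270248-128270325, the Irf1 stretch is chr11:53769884-53769972 and the Oasl2 stretch is chr5:114896684-114896933, all on the plus strand.
Stat2: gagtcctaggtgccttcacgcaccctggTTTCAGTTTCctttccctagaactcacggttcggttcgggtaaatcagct
Irf1: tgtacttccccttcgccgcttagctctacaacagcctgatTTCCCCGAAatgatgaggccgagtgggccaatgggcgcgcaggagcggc
Oasl2: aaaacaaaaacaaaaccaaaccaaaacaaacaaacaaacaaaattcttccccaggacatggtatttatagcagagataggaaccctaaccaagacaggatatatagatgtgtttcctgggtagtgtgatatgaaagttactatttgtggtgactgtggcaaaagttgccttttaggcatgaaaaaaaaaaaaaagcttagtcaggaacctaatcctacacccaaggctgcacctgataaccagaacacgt

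Of the 7 genes with a window, 1 held the IRF-type letters, Stat2, at -222 to -213 from its start site. The BLIMP1-type core followed directly in the same gene, at -212 to -205, without overlap. Among all genes of the table, 3.99% held the IRF-type letters and 9.91% the BLIMP1-type core. The GAS-type letters lay at -90 to -82 in Irf1 and at +8 to +16 in Ifi35, against 9.55% of all genes. The windows of Nmi, Oasl2, Parp12 and Irf9 held none of these letters, as the Oasl2 stretch shows. The Nmi window, chr2:51973159-51973458 on the minus strand, lay inside the listed span of the gene, which ends at 51973489. Letters upstream of that outer end were therefore not searched. Of the 7 genes with a window, Nmi, Oasl2 and Ifi35 separated CKO from control libraries, and Stat2, Irf1, Parp12 and Irf9 did not, as described next. Parp9 and Parp14 had no window. A relation between these letters and the levels was not tested.

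Depth was 2797477 to 5032133 reads in the floxed libraries and 1484743 to 4782796 in the wild-type libraries. A count of 3 reads corresponded to 0.596 to 2.02 RPM (reads scaled to the gene-assigned total of each library, not divided by gene length), a floor that covers counting error only. The 9 PGC markers, among them Dppa3, Ddx4 and Dazl, were detected in all 16 libraries. Markers of gonadal somatic and mesenchymal cells varied within the floxed groups, with summed levels of 13.54 to 74.6 RPM in the controls and of 107, 19.9, 10.3 and 266 RPM in CKO libraries 1 to 4. Prdm1 itself was listed at 66.2, 50.7, 63.0 and 73.0 RPM in the controls and at 79.9, 84.1, 76.6 and 89.4 RPM in the CKO-labelled libraries, 1.304 times the control mean. The sources used here do not give the position of the deleted part, so a 3′ tag of Prdm1 does not check the deletion. In bulk samples, fewer cells that express a gene and less of its RNA per cell cannot be told apart.

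NMI is a coiled-coil protein that binds STAT proteins, and its gene separated the floxed groups most widely in RPM. Nmi (chr2:51948498-51973489) was at 21.2, 21.5, 24.1 and 27.8 RPM in control libraries 1 to 4 and at 145, 120, 144 and 118 RPM in CKO libraries 1 to 4. Every CKO library lay far above every control, and the groups were tight. The means were 23.6 ± 3.06 RPM (SD, n = 4) and 132 ± 14.6 RPM (SD, n = 4), a ratio of 5.58.

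IFI35, which forms complexes with NMI, was near the detection floor. Ifi35 (chr11:101448412-101458701) was at 0.59, 1.99, 1.31 and 1.18 RPM in the controls and at 4.18, 3.38, 4.31 and 3.57 RPM in the CKO libraries. The groups did not overlap, with a ratio of means of 3.05, but the sums were 23 reads in the controls and 60 reads in the CKO libraries.

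**Figure D1:**
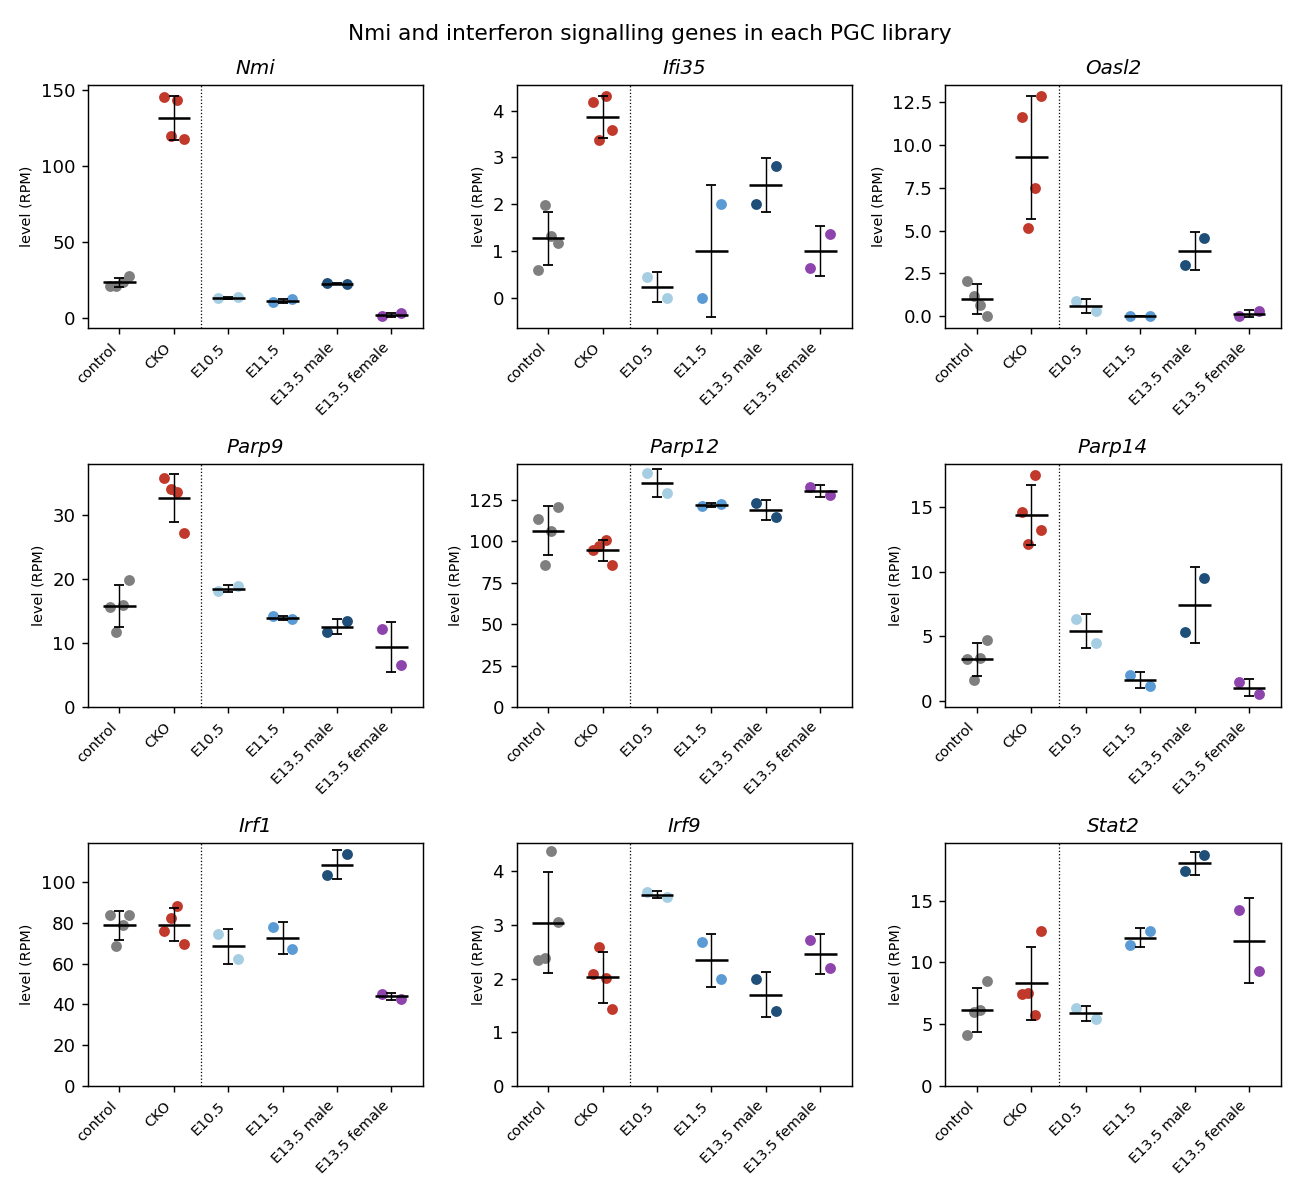
Level of each of the 9 genes in RPM (linear axis, own range per panel) in every library, by group, with the floxed groups left of the dotted line and the wild-type groups, which come from a separately normalized table, right of it. Points are libraries, horizontal lines are group means and bars are 1 SD. Nmi, Ifi35, Oasl2, Parp9 and Parp14 separate the 4 CKO from the 4 control libraries. Between E13.5 males and females only the libraries of Parp9 overlap. Stat2 and Parp12 nevertheless did not pass the test between the sexes, nor did Ifi35 and Irf9 in the fit without a filter. Groups this small can separate without a difference. The share of all genes that separate the sexes is not given, so this separation is not read as a result.

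Of the 9 genes, Oasl2 had the largest ratio of means. Oasl2 (chr5:114896926-114912245), a member of the oligoadenylate synthetase family, was at 2.06, 1.19, 0.66 and 0 RPM in the controls and at 11.6, 5.17, 7.46 and 12.9 RPM in the CKO libraries. It was close to absent in the controls, with 16 reads in all, and all CKO libraries were higher. The ratio of means was 9.49, with 138 reads in the CKO libraries, and the 16 control reads limit its precision. Its neighbour and paralog Oasl1 was listed at 0 in all 16 libraries.

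PARP9, PARP12 and PARP14 carry ADP-ribosyltransferase domains, and PARP9 works as a partner of the ubiquitin ligase DTX3L. Parp9 (chr16:35938470-35972621) was at 15.6, 11.7, 16.0 and 19.8 RPM in the controls and at 35.8, 34.0, 33.6 and 27.2 RPM in the CKO libraries, a ratio of means of 2.07. Parp14 (chr16:35831892-35871518) was at 3.24, 1.59, 3.28 and 4.71 RPM in the controls and at 14.6, 12.1, 17.5 and 13.2 RPM in the CKO libraries, a ratio of 4.48. Neither gene had a CKO library within the range of the controls.

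Dtx3l (chr16:35926515-35939027) lies between Parp14 and Parp9, and its 5′ end overlaps that of Parp9 on the other strand. It was at 10.3, 6.37, 7.44 and 8.01 RPM in the controls and at 16.7, 13.1, 19.5 and 22.2 RPM in the CKO libraries, and the groups did not overlap. The ratio of means was 2.23. Parp14, Dtx3l and Parp9, neighbours on chromosome 16, were each higher in every CKO library than in every control. This held for 4.34% of all genes tested in the floxed table. Parp9 was among the reasons for choosing the set, and Dtx3l was added as its neighbour, so this is not read as a result. Both genes are polyadenylated at ends that point away from each other, but a long noncoding gene, Gm15564, also overlaps Parp9, and whether the authors counted by strand is not given in the sources used here.

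The factors that carry the interferon signal, and Parp12, did not separate the groups. Irf1 was at 83.9, 68.8, 78.8 and 83.6 RPM in the controls and at 75.9, 82.5, 88.4 and 69.3 RPM in the CKO libraries, with means of 78.8 ± 7.03 and 79.0 ± 8.23 RPM (SD, n = 4 each). Stat2, whose gene overlaps Apof in RefSeq, was at 4.12, 5.97, 6.13 and 8.48 RPM in the controls and at 7.43, 7.55, 5.74 and 12.5 RPM in the CKO libraries. The Stat2 ratio of means was 1.35, and with 1 library left out at a time the log2 difference was 0.17 to 0.51. With both CKO library 4, the highest, and control library 1, the lowest, left out, it was 0.02. Leaving out these extremes lowers the difference by construction, so nothing is concluded from it.

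Irf9, the DNA-binding partner of STAT2, was at 2.35, 2.39, 4.38 and 3.06 RPM in the controls and at 2.09, 2.58, 2.01 and 1.43 RPM in the CKO libraries. Parp12, an ADP-ribosyltransferase of stress granules and the Golgi, was at 113, 85.9, 106 and 121 RPM in the controls and at 94.98, 97.2, 101 and 85.8 RPM in the CKO libraries. The ratios of means were 0.666 and 0.889, and for both genes the groups overlapped.

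Thus 5 of the 9 genes (Nmi, Ifi35, Oasl2, Parp9 and Parp14) had every CKO library above every control. Among all 9384 genes tested in the floxed table this held for 4.34%. Of the 9 genes, 7 had at least 5 RPM in 4 libraries, the limit for testing, and Oasl2 and Parp14 reached it only through the CKO libraries. The count of 5 describes how the set was chosen and is not read as a result.

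Markers of macrophages and other blood cells, which respond strongly to interferon, were low throughout. The summed level of 10 such markers was 2.06 to 15.3 RPM in the controls and 4.37 to 22.3 RPM in the CKO libraries. Of the 10, 9, 8, 3 and 2 were at 0 in control libraries 1 to 4, and 0, 7, 6 and 5 in CKO libraries 1 to 4. The part of blood or somatic cells in the difference between CKO and control libraries was not tested.

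The rest of the pathway was read from 6 lists with 123 genes, of which 122 had a row and 47 were tested in the floxed table. Genes with a Benjamini-Hochberg adjusted p below 0.05, from limma on log2(RPM + 1), count as called. Of the 47, 1 was called between CKO and control libraries, against 2.43% of all genes tested. It was Dtx3l, with a log2 difference of 1.06 ± 0.21 (SE; limma, adjusted p = 0.0161). At an unadjusted p under 0.05 by limma, 6 of the 47 were higher and 4 lower. The share of all genes at that unadjusted limit is not given here, so these counts are not read as a result. The Dtx3l call ended without control library 3 (adjusted p = 0.0543 by limma), without CKO library 3 (0.0611), without CKO library 4 (0.0506) and without the filter on low values (0.0675). The median log2 difference was 0.03 over the 47 genes and -0.02 over all genes tested.

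Of the central interferon response genes, Isg15 and Irf7 were scarcely detected in the floxed libraries. Isg15, a ubiquitin-like interferon product, was at 0.223 ± 0.31 RPM in the controls and 0.247 ± 0.179 RPM in the CKO libraries, and Irf7, the amplifier of type I interferon, at 0.0497 ± 0.0994 and 0.157 ± 0.194 RPM (SD, n = 4 each). These means lie below the floor of 3 reads, so differences between the groups were not detectable at this depth. Ifnb1 and Ifit1 were listed at 0 in all 16 libraries, and 3 of the 12 interferon and receptor genes were abundant enough to be tested.

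Of the signal transducers, Stat4 was at 42.4 ± 3.5 RPM in the CKO libraries and 22.1 ± 9.11 RPM in the controls (SD, n = 4 each), and its adjusted p by limma was 0.0583. Tyk2, a kinase of the type I interferon receptor, was at 5.95 ± 2.69 against 11.3 ± 1.36 RPM (SD, n = 4 each; limma, adjusted p = 0.154). Neither passed the threshold.

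In the wild-type libraries, Nmi and Irf1 were highest in E13.5 males and lowest in E13.5 females. Nmi had RPM levels of 13.1 and 14.1 in the E10.5 pair, 10.8 and 12.5 in the E11.5 pair, 23.0 and 22.5 in the E13.5 males, and 1.25 and 3.29 in the E13.5 females. No neighbours in this order overlapped, although the difference between E10.5 and E11.5 did not pass the test. Irf1 had RPM levels of 74.5 and 62.4 in the E10.5 pair, 78.1 and 66.9 in the E11.5 pair, 104 and 113 in the E13.5 males, and 45.2 and 42.8 in the E13.5 females. The E10.5 and E11.5 libraries of Irf1 overlapped, and each sex at E13.5 stood apart from them.

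From E11.5 to E13.5 in females, Nmi fell by 2.02 ± 0.35 on the log2 scale (SE; limma, adjusted p = 2.93e-05), and Irf1 fell by 0.71 ± 0.15 (adjusted p = 0.000403 by limma). These were 2 of the 6 genes of the set that passed the filter in the wild-type table, where 51.2% of all genes tested were called in the same comparison. Both calls held in all 19 alternative settings run.

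From E11.5 to E13.5 in males, Irf1 rose by 0.58 ± 0.15 (SE; limma, adjusted p = 0.00397) and Parp14 by 1.68 ± 0.48 (adjusted p = 0.00673). Nmi rose by 0.91 ± 0.35 (limma, adjusted p = 0.0414), a call that ended in 12 of 19 alternative settings, with adjusted p-values up to 0.154. These were 3 of 6 tested genes, against 38.2% of all genes tested. Parp14 reached 5 RPM only in both male libraries and in E10.5 library 1, so it would not have passed the filter without the males. The Parp14 rise was also called in the fit without the filter. Without E13.5 male library 2 none of the 3 was called, with adjusted p-values by limma of 0.143 for Nmi, 0.0561 for Irf1 and 0.0981 for Parp14. The median change of all genes was 0.11 in males and 0.13 in females on this scale, and median-ratio scaling moved it to 0.03 and 0.02.

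**Figure D2:**
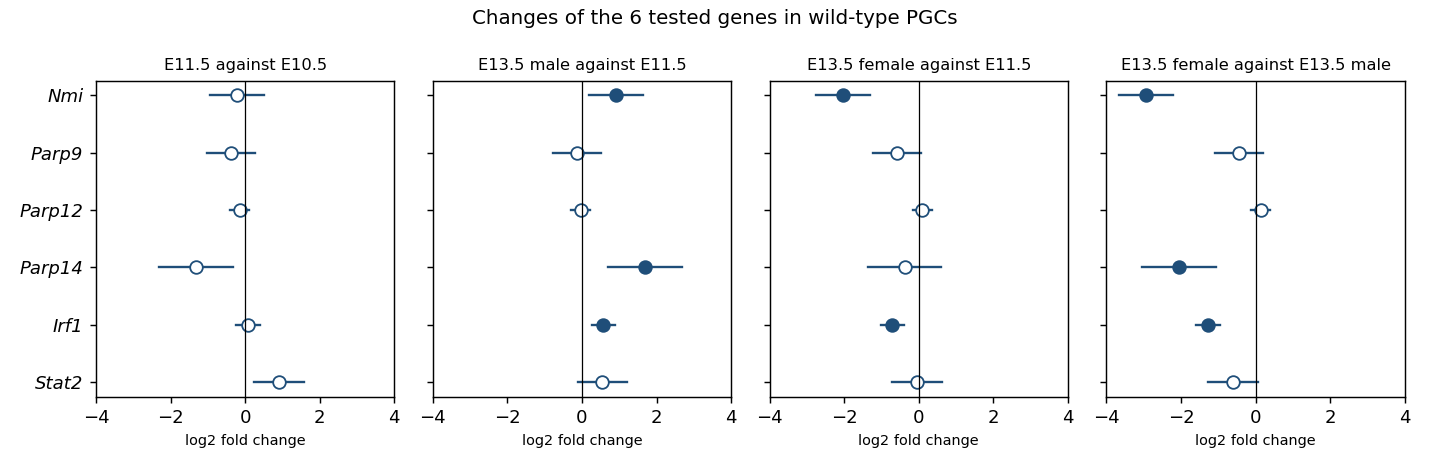
Log2 fold change on the log2(RPM + 1) scale (horizontal axis) of the 6 genes of the set that were tested in the wild-type libraries, for 4 comparisons of 2 libraries against 2. Points are limma estimates, filled where the adjusted p was under 0.05, and lines are 95% intervals. Nmi, Parp14 and Irf1 are filled at -2.94, -2.06 and -1.28 in the comparison of females with males, and no gene is filled between E10.5 and E11.5.

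The sexes at E13.5 differed in 3 of the 6 tested genes, against 37.6% of all genes tested. Females were lower than males by a log2 difference of -2.94 ± 0.35 for Nmi (SE; limma, adjusted p = 1.71e-07), of -1.28 ± 0.15 for Irf1 (1.67e-07) and of -2.06 ± 0.48 for Parp14 (0.0012). These 3 calls held in all alternative settings that were run. Parp14 passed the filter only with the male libraries counted, the group where it was higher. Somatic marker sums were 15.4 and 16.2 RPM in the male libraries and 5.85 and 6.03 RPM in the female ones, and endothelial marker sums 60.1 and 58.8 RPM against 116 and 124 RPM. Of the 8 endothelial markers, 3 and 5 were at 0 in male libraries 1 and 2, and 5 and 3 in female libraries 1 and 2. The endothelial sums thus rest on the remaining markers and do not measure the share of endothelial cells. The part of these marker differences in the result was not tested.

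Parp14 had RPM levels of 6.32 and 4.48 in the E10.5 pair, 2.02 and 1.14 in the E11.5 pair, 5.34 and 9.51 in the E13.5 males, and 1.46 and 0.55 in the E13.5 females. Males and E10.5 overlapped at the top of this order, and E11.5 and females at the bottom. The E11.5 value rested on 7 reads in all. Between E10.5 and E11.5 the log2 difference was -1.32 ± 0.48 (SE) and did not pass the test (limma, adjusted p = 0.114).

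Oasl2 was too low to be tested with the filter. The E10.5 libraries held 0.90 and 0.32 RPM, both E11.5 libraries 0, the E13.5 males 3.01 and 4.58 RPM, and the E13.5 females 0 and 0.27 RPM. The male libraries alone held more than a few reads, with 22 reads in both together against 1 read in the females. In a fit without the filter, males differed from females with an adjusted p by limma of 0.00325 and from E11.5 with one of 0.00231.

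Stat2, by contrast, was lowest at E10.5. It had RPM levels of 6.32 and 5.44 in the E10.5 pair, 11.4 and 12.5 in the E11.5 pair, 17.4 and 18.7 in the E13.5 males, and 14.2 and 9.32 in the E13.5 females. The E11.5 and female libraries overlapped, and males and E10.5 stood at the ends. The log2 difference of E11.5 from E10.5 was 0.92 ± 0.33 (SE), with a 95% interval of 0.25 to 1.59 and an adjusted p of 0.103 by limma.

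No member of the set was called between E10.5 and E11.5 by limma, against 4.28% of all genes tested, and at an unadjusted p under 0.05 Stat2 was higher and Parp14 lower. In that fit Nmi differed by -0.21, with a 95% interval of -0.93 to 0.52. On the recovered reads, limma's voom also called 0 of the 6.

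Parp12 varied least among the 6 tested genes, by the size of its widest log2 difference. It had RPM levels of 141 and 129 in the E10.5 pair, 121 and 123 in the E11.5 pair, 123 and 114 in the E13.5 males, and 133 and 128 in the E13.5 females. Of the 4 comparisons, E11.5 against E10.5 had the widest difference, -0.15 on the log2 scale with a 95% interval of -0.40 to 0.10, and females against males gave 0.13, from -0.12 to 0.38. In the order of levels, the E10.5 and female libraries overlapped and so did those of E11.5 and males.

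Parp9 had RPM levels of 18.1 and 18.9 in the E10.5 pair, 14.1 and 13.7 in the E11.5 pair, 11.7 and 13.4 in the E13.5 males, and 12.1 and 6.58 in the E13.5 females. The groups descended in that order, and the male and female libraries overlapped. No Parp9 comparison passed the test, with 95% intervals of -1.23 to 0.07 for females against E11.5 and -1.09 to 0.21 for females against males. Under quantile normalization the fall in females had an adjusted p of 0.0248 by limma, and without E13.5 female library 1 of 0.0481.

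Ifi35 and Irf9 stayed near the floor in every wild-type library. Ifi35 ranged from 0 to 2.82 RPM, highest in the E13.5 males, and Irf9 from 1.41 to 3.61 RPM, highest at E10.5. No comparison of either gene passed the test in the fit without a filter, where the smallest adjusted p by limma was 0.254 for Ifi35 and 0.585 for Irf9.

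The genes whose wild-type pattern was most like that of Nmi, by Pearson's r of log2(RPM + 1) over 8 libraries among 8403 genes, were Max (0.993), Utp15 (0.987), Stk38 (0.980), Slc38a2 (0.979) and Pcbp1 (0.977). Within the set, r with Nmi was 0.894 for Irf1, which ranked 210 among the 8403 genes. The other values were 0.728 for Parp14, 0.640 for Oasl2, 0.480 for Parp9, 0.237 for Ifi35, 0.078 for Stat2, -0.230 for Irf9 and -0.438 for Parp12. In the floxed table, among 7923 genes, Prps1 (0.992), Lrp11 (0.983), Spnb2 (0.983), Zmynd8 (0.981) and AA467197 (0.978) were most like Nmi. These values are descriptions over libraries that fall into groups, and in the floxed table they mostly repeat the difference between CKO and control.

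Of the pathway genes outside the set, 50 were tested in the wild-type table. Between E10.5 and E11.5, 2 were called, both lower at E11.5, Rnf213 by -0.52 and Tnks2 by -0.41 on the log2 scale (limma, adjusted p = 0.0448 and 0.0352). Each call ended in 12 of 19 settings. Erythroid marker sums were 224 and 213 RPM at E10.5 and 14.8 and 5.98 RPM at E11.5. Somatic marker sums were 61.4 and 66.9 RPM at E10.5 and 6.06 and 9.4 RPM at E11.5. The part of these marker differences in the comparison of E10.5 with E11.5 was not tested. From E11.5 to E13.5, 24 of the 50 genes were called in males (11 higher, 13 lower), which is 48.0% against 38.2% of all genes tested. In females 25 were called (12 higher, 13 lower), which is 50.0% against 51.2%. Between the sexes, 13 were higher and 11 lower in females, 48.0% against 37.6% of all genes. The medians of the 50 genes were -0.03 in males, -0.02 in females and 0.06 between the sexes, against 0.11, 0.13 and 0.05 over all genes.

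Of 16 interferon-stimulated effectors tested, 8 fell from E11.5 to E13.5 in females and 2 rose, with a median log2 change of -0.98. The calls came to 62.5% of the list, against 51.2% of all genes tested, of which 3354 rose and 2148 fell. Pml, the scaffold of nuclear bodies, fell from 172 ± 0.0417 to 45.2 ± 4.74 RPM (SD, n = 2 each), a log2 change of -1.91 ± 0.13 (SE; limma, adjusted p = 2.28e-12). Samhd1, a nucleotide hydrolase that restricts viral replication, fell from 129 ± 17.7 to 44.7 ± 0.789 RPM (SD, n = 2 each; limma, adjusted p = 7.21e-10). Lgals9, which encodes galectin-9, fell from 96.9 ± 10.3 to 12.2 ± 2.84 RPM, and Tor3a, an interferon-induced torsin ATPase, from 29.7 ± 1.94 to 8.44 ± 2.25 RPM (SD, n = 2 each; adjusted p = 4.66e-11 and 1.57e-06 by limma).

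In males the same list was divided, with 3 of 16 higher and 3 lower than at E11.5 (37.5% against 38.2% of all genes tested) and a median of -0.18. Lgals9 fell to 8.97 ± 2.76 RPM and Pml to 114 ± 1.54 RPM, Uba7, the activating enzyme for ISG15, fell from 5.79 ± 1.34 to 0.343 ± 0.0129 RPM, and Shisa5 rose from 7.79 ± 1.36 to 17.9 ± 2.96 RPM (SD, n = 2 each; limma, adjusted p = 2.33e-12, 0.000659, 0.000663 and 0.00467). The Shisa5 call ended without E13.5 male library 1 (limma, adjusted p = 0.0647). Uba7 passed the filter only through E10.5 and E11.5 libraries, the groups where it was higher, and its call also held without the filter. Directly between the sexes, 6 of 16 effectors were lower in females and 1 was higher, against 37.6% of all genes called. Samhd1 was at 127 ± 0.65 RPM in males, Tor3a at 49.0 ± 8.59 RPM and Irgm1, an immunity-related GTPase, at 10.6 ± 0.572 RPM (SD, n = 2 each). Their log2 differences, females minus males, were -1.49 ± 0.14, -2.42 ± 0.24 and -2.56 ± 0.44 (SE; limma, adjusted p = 1.16e-09, 7.23e-09 and 3.96e-05). Dtx3l was at 8.38 ± 0.898 RPM in males and 3.77 ± 1.46 RPM in females (SD, n = 2 each; limma, adjusted p = 0.0245), a call that ended without either male library, without female library 2 and without the filter on low values.

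**Figure D3:**
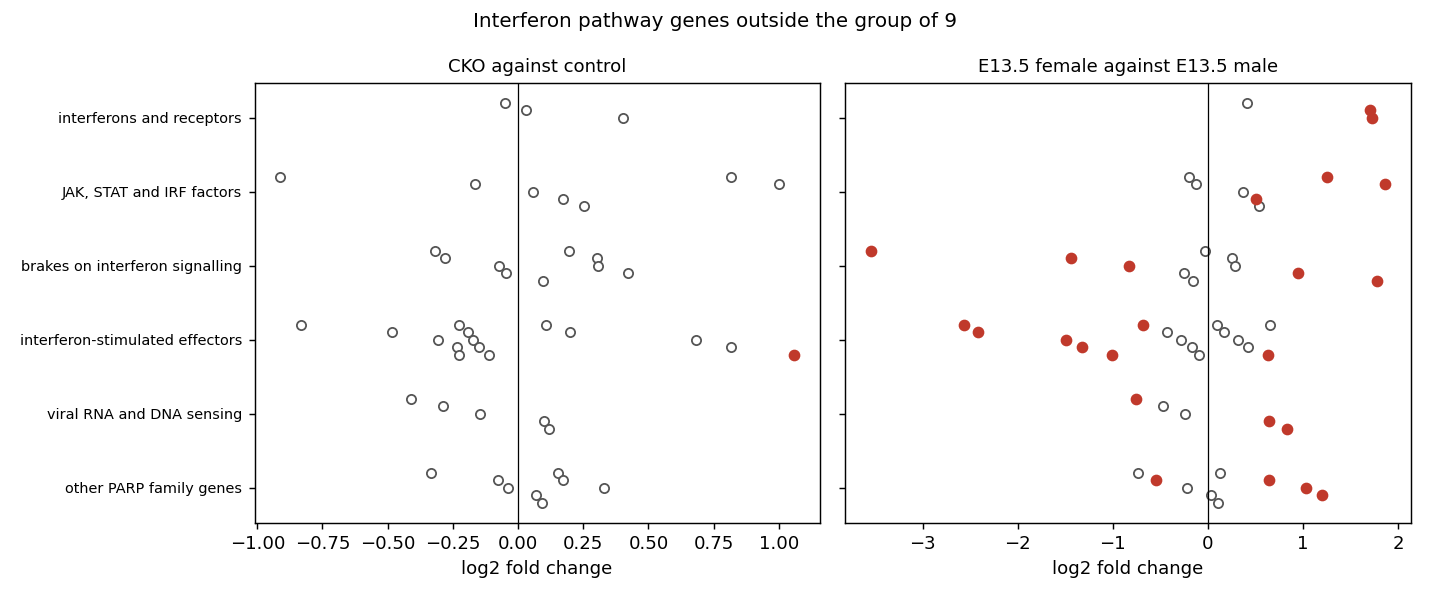
Log2 fold change on the log2(RPM + 1) scale (horizontal axes, which differ in range) of the tested pathway genes outside the set, by list, for CKO against control (left, 47 genes) and E13.5 females against males (right, 50 genes). Each circle is a gene, filled where limma's adjusted p was under 0.05, and vertical offsets only separate circles. Dtx3l at 1.06 is the filled circle on the left, and 6 of the 7 filled effectors on the right lie below 0.

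Receptors and kinases followed other orders. The interferon gamma receptor subunit Ifngr1 was at 13.1 ± 2.42 RPM at E11.5, 4.81 ± 0.665 RPM in males and 18.3 ± 1.3 RPM in females (SD, n = 2 each), and females exceeded males by 1.73 ± 0.34 on the log2 scale (SE; limma, adjusted p = 0.000164). Il28ra, the interferon lambda receptor also known as Ifnlr1, was higher in females by 1.71 ± 0.41 (limma, adjusted p = 0.00141), a call that ended without female library 1 (0.104). Jak2, the kinase of the interferon gamma receptor, was higher in females by 1.86 ± 0.33 (adjusted p = 5.48e-05 by limma).

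Jak1, used by all interferon receptors, rose from 43.0 ± 2.76 RPM at E11.5 to 104 ± 10.4 RPM in males and 148 ± 16.6 RPM in females (SD, n = 2 each; limma, adjusted p = 1.72e-07 and 2.41e-10). Stat4 fell from 29.2 ± 8.26 RPM to 2.88 ± 1.59 RPM in males and 2.42 ± 0.46 RPM in females (adjusted p = 1.06e-07 and 3.33e-08 by limma). Stat3 rose in females by 1.46 ± 0.45 (SE; limma, adjusted p = 0.00766), a call that ended in 4 settings. Without E11.5 library 1 the Stat3 change was 0.55 (limma, adjusted p = 0.294), without female library 1 it was 0.97 (0.174), and the adjusted p was 0.0978 without the filter and 0.0837 without a mean-variance trend.

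Among the brakes, 6 of 10 tested genes changed from E11.5 to E13.5 in males, 4 of them upward, against 38.2% of all genes called. Ptpn6, the phosphatase SHP-1, fell in males from 96.4 ± 12.3 to 20.6 ± 2.71 RPM (SD, n = 2 each; limma, adjusted p = 8.04e-12) and was at 72.9 ± 1.14 RPM in females. The IRF2-binding gene Irf2bpl, listed as 6430527G18Rik, rose in males from 1.15 ± 1.23 to 45.7 ± 4.13 RPM and was at 3.07 ± 1.09 RPM in females (SD, n = 2 each). It was lower in females than in males by a log2 difference of -3.54 ± 0.45 (SE; limma, adjusted p = 4.07e-07). Irf2bpl passed the filter only through the male libraries, and both calls also held without the filter. Pias2, a SUMO ligase that restrains STAT proteins, rose by 1.00 ± 0.13 in males and 0.85 ± 0.13 in females (adjusted p = 7.66e-07 and 6.63e-06 by limma).

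Of 5 tested sensing genes, 3 were called in each sex against E11.5, where 38.2% of all genes were called in males and 51.2% in females. Ddx58, which encodes the viral RNA sensor RIG-I, rose from 17.9 ± 5.17 RPM to 64.2 ± 3.66 RPM in males and 37.7 ± 3.32 RPM in females (SD, n = 2 each; limma, adjusted p = 4.34e-07 and 0.000406). Its adaptor Mavs was lower in males, by a log2 change of -0.90 ± 0.24 (SE; limma, adjusted p = 0.0043), and Tbk1, the kinase downstream, was higher, by 0.96 ± 0.20 (0.000477). Of 9 other PARP family genes, 4 were called in males (44.4%, near the share of all genes) and 3 in females (33.3%, below it). Parp1, the DNA damage sensor, was lower in both, by -0.46 ± 0.08 and -0.33 ± 0.08 (limma, adjusted p = 7.15e-05 and 0.00162), and the call in females ended without a mean-variance trend (0.0782).

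In the wild-type groups, Isg15 was at 2.4 ± 0.0899 RPM in males, 0.386 ± 0.0928 RPM at E10.5, 0.337 ± 0.476 RPM at E11.5 and 0.137 ± 0.194 RPM in females (SD, n = 2 each), and the group means of Irf7 were between 0 and 0.379 RPM. These genes did not pass the filter on low values, and most of these levels rest on few reads.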

How the data were processed

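The authors deposited expression as RPM (reads scaled to the gene-assigned total) in a floxed and a wild-type table, which were normalized separately and tested separately. Per the submitters' processing notes, cutadapt 1.3, TopHat 1.4.1, Cufflinks 2.2.0 and the mm10 build were used. Per the labels' protocols, complementary DNA was amplified with 11 PCR cycles, from 1 ng of RNA for the wild-type libraries. The 92 spike-in rows of the wild-type table were left out. Between 99.67% and 99.80% of values per library were whole multiples of a step within 0.05 reads, which gave the depths. A few values were fractional, so edgeR's count test was not run, and limma's voom on the recovered reads was added after seeing the data.

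The test was limma 3.58.1 in R 4.3.3 (lmFit, eBayes with trend) on log2(RPM + 1), first tested on simulated data. Genes needed 5 RPM in 4 of the floxed or in 2 of the wild-type libraries. Calls needed a Benjamini-Hochberg adjusted p under 0.05 over all genes. The wild-type libraries shared a single fit, so its comparisons share libraries and no overlaps between them were counted. Fold changes on this scale understate changes of low genes. The 9 genes, the pathway lists and the rules were chosen with earlier results of these data known. From each pathway list, genes past the threshold were named by smallest p, at most 4 per list and comparison, with Irf7, Isg15 and Dtx3l always. Some genes that the rule names are left out here. Others named, with an unadjusted p under 0.05 or listed at 0, were picked after their values were seen. Positions and promoters are from RefSeq GRCm38.p6, and 24619 of 26219 identifiers matched.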

Additional observations from a re-analysis of the deposited data

Results flagged for a closer look

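The change from E11.5 to E13.5 differed between the sexes for 3 of the 6 tested genes of the set. Since both sexes are compared with the same E11.5 libraries, the difference of the changes is the direct contrast of females with males, tested by limma over 2 libraries each. It was -2.94 on the log2 scale for Nmi, -2.06 for Parp14 and -1.28 for Irf1, and 37.6% of all genes tested were called in this contrast. In each of the 3 genes both male libraries lay above both female ones. The same held for Stat2, which was not called, so this separation is not read as a result. Parp14 passed the filter only with the male libraries counted. No library of the floxed groups stood apart from the other 3 of its group in any of the 9 genes by Dixon's test.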

How the results depend on the processing

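Over the alternatives run, the female-male calls of Nmi, Irf1 and Parp14 and the female fall of Nmi and Irf1 held. In the floxed table, 228 genes passed, 139 under the 20 RPM filter and 137 to 204 with a library left out, lowest without CKO library 2. The 1 pathway call became 0 without the filter or at 20 RPM, 2 with a pseudocount of 10, median-ratio scaling, voom or both control library 1 and CKO library 4 left out, 4 with array quality weights, and 0 to 2 with a library left out. A replicate block gave 314 genes and 4 pathway calls; the deviations of same-numbered libraries correlated at 0.182 to 0.252 in 3 of 4 pairs and at 0.0198 in pair 2, the labels name nothing they share, and the numbers were not taken as pairs. In the wild-type libraries the block changed no call of the set. Between E10.5 and E11.5, 460 genes became 80 without the filter, 27 without a mean-variance trend, 279 with array weights, 79 with only the groups compared and 105 to 486 with a library left out, lowest without E10.5 library 1. The 2 pathway calls there became 0 with a pseudocount of 0.1 and under these 4 settings, 4 with voom, and 0 to 3 with a library left out. In males against E11.5, 0 to 3 genes of the set were called with a library left out. With a library left out, uncalled differences changed sign for Irf1 at E11.5 (-0.0423 to 0.2087), Parp12 in males (-0.091 to 0.0149) and Stat2 in females (-0.3305 to 0.2297), and Parp12 in females was -0.0205 with median-ratio scaling and -0.0054 with quantile normalization. Calls split as 3354 higher and 2148 lower in females against E11.5, and as 2731 and 2811 under quantile normalization; at E11.5 against E10.5 as 248 and 212, and as 212 and 280 under median-ratio scaling. The causes were not tested. Leaving both libraries out was, like voom, chosen after seeing the data. The edgeR count test was not run because some values were fractional. Depth limits Oasl2, Ifi35 and Irf9.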
